A study of Mus musculus with 48 samples.

Results

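NF-kappa B is a family of transcription factors that cells hold ready in the cytoplasm and release in response to danger signals. The 53 genes described here form its main input routes and its core machinery in the liver: the cytokines TNF and IL-1 with their receptors, the Toll-like receptors that sense microbial products, the adaptors and kinases that carry their signal, the IKK kinases, the NF-kappa B subunits, the I kappa B proteins that hold those subunits back, and a few genes that NF-kappa B switches on. The genes were chosen by name, and each was read by its brightest probe on the array. All 53 were among the 37074 gene names on the array, and 52 were among the 22027 gene names with a probe bright enough to test. The exception was Ticam2, an adaptor of TLR4, whose probes were well above background on at most 2 of the 8 arrays of any group.

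Liver RNA of 48 male mice was measured on one-colour Agilent microarrays, 1 array per mouse, in 6 groups of 8. The genotypes were WT, Pparα hep-/- and Pparα-/-. PPARα is a nuclear receptor that binds fatty acids and drives genes of lipid oxidation. The Pparα-/- mice lack it in every cell from the germline on. The Pparα hep-/- mice carry floxed Pparα alleles and an albumin-Cre transgene, so that deletion is aimed at hepatocytes and the other liver cells keep the gene. Within each genotype 8 mice ate a low-fat control diet (CTRL) and 8 a high fat diet (HFD, 60% of calories from fat). By the labels the mice, of C57Bl6J background, had eaten the diet for 12 weeks and were 20 weeks old, while the methods give a shorter feeding time. All mice were housed at thermoneutrality and were killed in the fed state. The WT mice came from a commercial breeder and both deletion lines were bred in house, so that origin and genotype cannot be told apart where a deletion is compared with WT.

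In resting cells NF-kappa B dimers are bound by I kappa B proteins. Ligand binding to a TNF, IL-1 or Toll-like receptor recruits adaptors such as MyD88, then kinases of the IRAK and RIPK families and ubiquitin ligases of the TRAF family, and these activate the IKK complex. IKK marks the I kappa B protein for destruction, the dimer enters the nucleus, and among its targets are genes for its own brakes, such as Nfkbia and Tnfaip3, and for adhesion molecules that hold leukocytes on the endothelium. Kupffer cells, the resident macrophages of the liver, carry much of the Toll-like receptor signalling in this organ, while hepatocytes make circulating components such as LBP. The array measures RNA of the whole liver, where more cells of a type and more RNA per cell cannot be told apart.

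Some arrays stood apart. The fit gives each array a weight for how closely it follows its group over all probes, and the weights ran from 0.189 to 2.53. The lowest weights belonged to Pparα hep-/- CTRL replicate 1 (0.189), WT CTRL replicate 6 (0.208), WT HFD replicate 2 (0.343) and WT HFD replicate 6 (0.372). These arrays were often the highest of their group for the genes described here. Pparα hep-/- CTRL replicate 1 had the highest of the 8 values for 18 of the 24 members named by rule, WT CTRL replicate 6 for 12, and the WT HFD pair for 10 each. Arrays of higher weight did so too, among them Pparα-/- CTRL replicate 2 (weight 0.756) for 15, Pparα-/- HFD replicate 8 (1.63) for 11 and Pparα hep-/- HFD replicate 1 (1.35) for 9. Counts are given with array weights, and for the members also without weights and with the 4 arrays of low weight left out as well. Signal values are normalized log2 intensities after removal of the wash batch term, given as the lowest, the median and the highest of the 8 mice. Changes are log2 differences ± SE from limma, n = 8 mice per group, and a change counts as called when its p, adjusted over all 33321 tested probes, is 0.05 or less. Ppara itself gave less signal than in WT mice, with log2 differences of -0.42 (CTRL) and -0.85 (HFD) after the hepatocyte deletion and -0.65 and -1.08 after the germline deletion, all called. Where its probe lies relative to the deleted exon was not settled, so these values do not check the deletion.

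The first question is how these genes answered the HFD in each genotype. In WT mice 2 members rose and 4 fell. Over all gene names 9.32% were called higher and 10.1% lower in that comparison. In Pparα hep-/- mice 20 of 52 members rose and 2 fell, against 10.7% and 11.8% of all gene names. In Pparα-/- mice 23 rose and 4 fell, against 13.8% and 12.6%. Over the 52 members the median log2 change was 0.01 for WT mice, 0.19 after the hepatocyte deletion and 0.21 after the germline deletion, while the median over all gene names lay between -0.01 and 0.00. The 17 members that rose in both deletions, out of the 20 and the 23, were Il1rn, Tlr1, Tlr2, Tlr8, Cd14, Ly96, Lbp, Irak3, Traf3, Nfkb2, Relb, Nfkbia, Nfkbie, Nfkbiz, Tnfaip3, Icam1 and Vcam1. Of these, Il1rn was also called in WT mice. Traf2, Tlr5 and Tlr7 were called higher after the hepatocyte deletion alone of the deletions, and Il1b, Myd88, Nfkb1, Rel, Map3k8 and Bcl3 after the germline deletion alone.

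**Figure D1:**
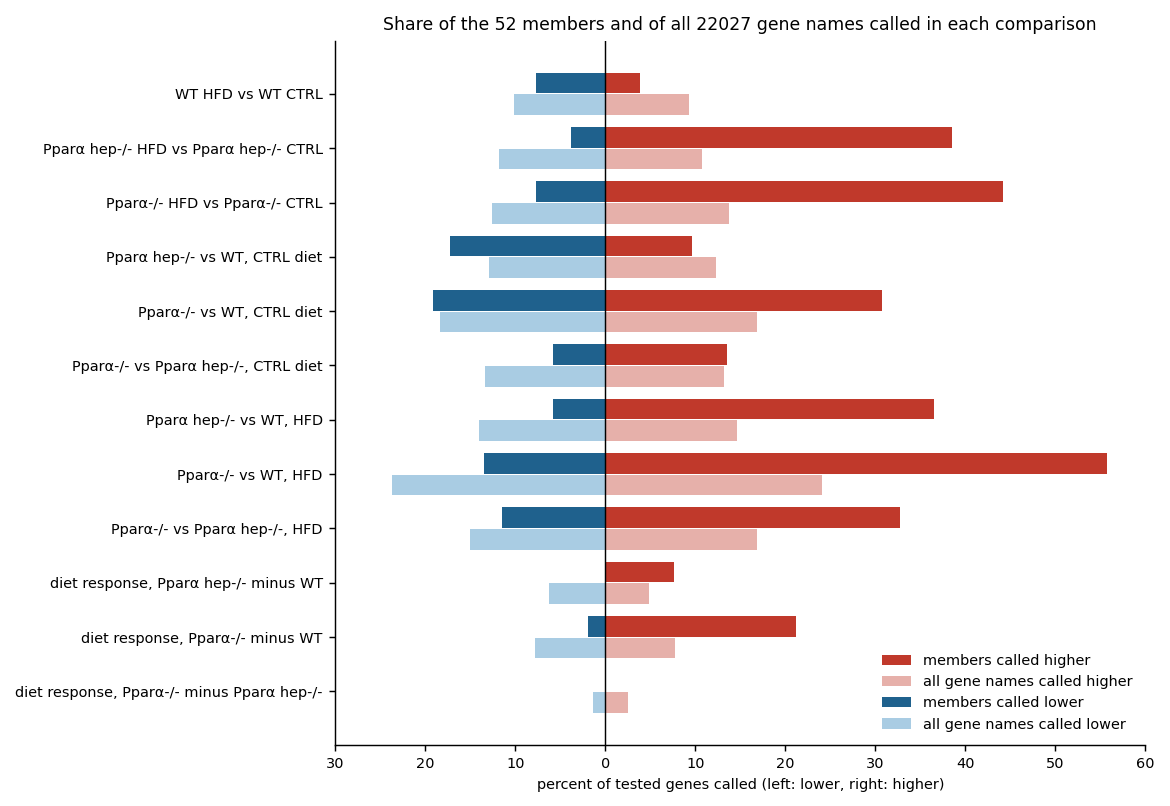
Percent of the 52 tested members (dark bars) and of all 22027 tested gene names (pale bars) called higher, to the right, or lower, to the left, in each of the 12 comparisons (limma, adjusted p at most 0.05). On the HFD the members were called higher in 38.5% of cases in Pparα hep-/- and in 44.2% in Pparα-/- mice, against 3.85% in WT mice.

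The counts in Pparα hep-/- mice rest on the array weights. Without weights none of the 22 members was called (limma, 0 of 52), although all 22 kept their sign and 10 members had an unadjusted p under 0.05. Their adjusted p without weights ran from 0.0588 to 0.634. With Pparα hep-/- CTRL replicate 1 and WT CTRL replicate 6 left out and no weights, 8 members were called, and with all 4 low-weight arrays left out and no weights 18 were called, 17 of them among the 22. For Pparα-/- mice 20 of the 27 calls remained without weights and 26 of the 27 with the 4 arrays left out and no weights. The 7 calls lost without weights were those of Il1b, Tnf, Tlr1, Tlr8, Traf3, Vcam1 and Bcl3. In WT mice 3 of the 6 calls remained without weights, those of Il1rn, Tlr5 and Ripk1. Every called diet change had the same sign in both wash batches taken alone, in all 3 genotypes. The calls came from these same arrays, so this agreement is not independent evidence for them.

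**Figure D2:**
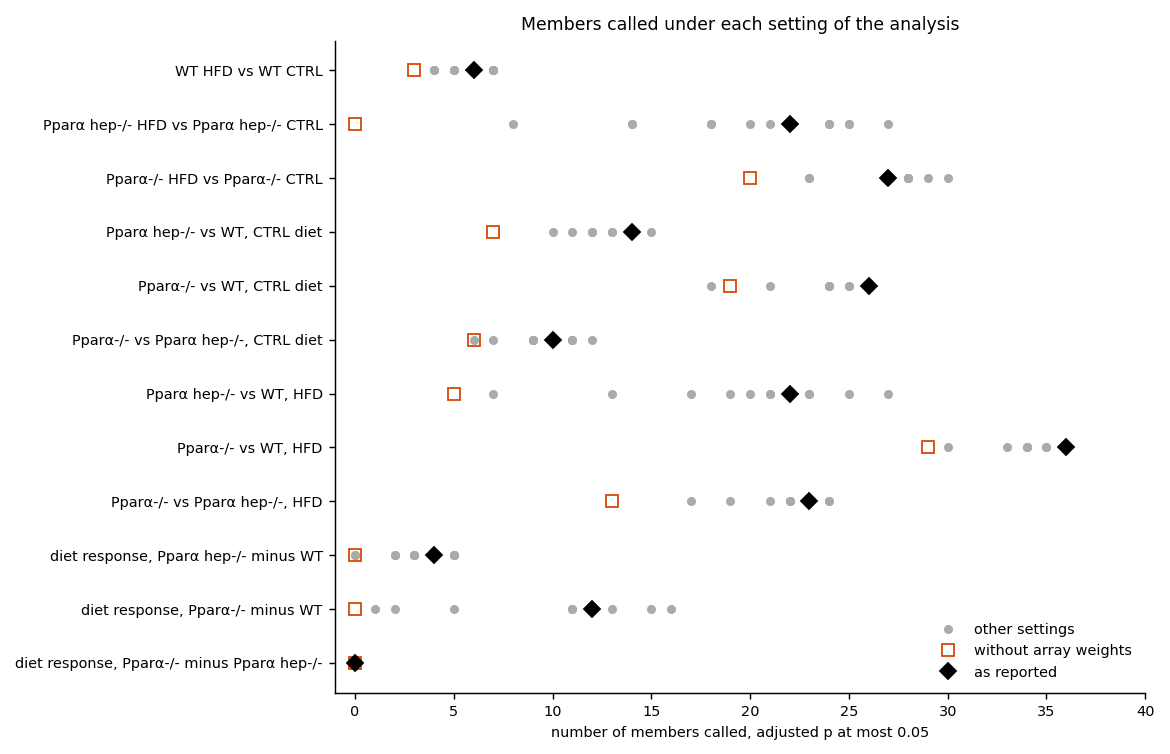
Number of the 52 members called (horizontal axis) in each of the 12 comparisons as reported (black diamonds), without array weights (open squares) and under the other 13 settings (grey points). The diet comparison in Pparα hep-/- mice runs from 0 to 27 members called, that in Pparα-/- mice from 20 to 30.

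Several of the genes that rose on the HFD hold kappa B letters next to their start. RefSeq promoter windows of 300 bases (build GRCm38.p6, 250 bases before and 50 after a transcript start) were at hand for 41 of the 53 members. The kappa B consensus, searched on both strands, was found in 11 of the 41 (26.8%), against 5.14% of the 27025 genes in the table. It was found in 6 of the 11 members with a window that rose in both deletions, namely Tlr2, Traf3, Nfkb2, Nfkbia, Nfkbie and Tnfaip3, and in 5 of the other 30, namely Il1r1, Tlr3, Rel, Map3k7 and Bcl3. The AP-1 letters TGANTCA, none of whose matches overlapped a kappa B match, were in 8 of the 41 windows (19.5%) and in 8.97% of all genes. They too were split, being found in 4 of the 11 members that rose in both deletions (36.4%) and in 4 of the other 30 (13.3%). A match describes letters in a window and is not a measured site. The stretches around the matches follow for the 4 members named by rule that rose in both deletions and hold one, 5′ to 3′ on the strand of the gene, with the kappa B letters in capitals. They lie at chr3:83841605-83841793 (Tlr2, minus strand), chr10:19015407-19015547 (Tnfaip3, minus strand), chr19:46304686-46304740 (Nfkb2, plus strand) and chr17:45555582-45555615 (Nfkbie, plus strand).
Tlr2: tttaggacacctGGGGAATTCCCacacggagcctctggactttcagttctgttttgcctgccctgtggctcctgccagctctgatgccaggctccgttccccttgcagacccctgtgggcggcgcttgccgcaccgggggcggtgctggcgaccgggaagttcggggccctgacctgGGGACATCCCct
Tnfaip3: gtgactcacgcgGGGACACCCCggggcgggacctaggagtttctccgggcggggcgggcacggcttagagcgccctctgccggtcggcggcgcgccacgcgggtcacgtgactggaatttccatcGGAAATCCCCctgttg
Nfkb2: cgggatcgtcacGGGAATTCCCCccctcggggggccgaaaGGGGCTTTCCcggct
Nfkbie: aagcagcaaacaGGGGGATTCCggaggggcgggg
In Tlr2 and Nfkb2 the first run of capitals joins matches that overlap by all but 1 base, and 1 of them reads alike on both strands. The match nearest to the start begins 8 bases before it in Tlr2, 12 in Tnfaip3, 11 in Nfkb2 and 106 in Nfkbie.

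Among the ligands, the clearest riser was an antagonist. Il1rn encodes the IL-1 receptor antagonist, which occupies the IL-1 receptor without signalling (probe at chr2:24206125-24206184, build mm9). Its lowest, median and highest signals were 6.21, 6.72 and 8.93 in WT CTRL, 6.49, 7.85 and 9.74 in WT HFD, 7.11, 7.77 and 9.45 in Pparα hep-/- CTRL and 8.01, 8.66 and 9.02 in Pparα hep-/- HFD mice. Pparα-/- mice had 7.59, 8.36 and 9.14 on CTRL and 9.08, 9.36 and 9.77 on HFD, the highest median of the 6 groups. All 8 Pparα-/- HFD mice lay above all 8 Pparα hep-/- HFD mice. Il1rn rose on the HFD by 0.86 ± 0.29 (adjusted p = 0.0296) in WT mice. The rise was 0.86 ± 0.24 (adjusted p = 0.0102) after the hepatocyte deletion and 1.07 ± 0.25 (adjusted p = 0.00183) after the germline deletion. It was also higher without the diet, by 0.93 ± 0.28 (adjusted p = 0.0107) in Pparα hep-/- and by 1.58 ± 0.29 (adjusted p = 2.77e-05) in Pparα-/- mice over WT. Without array weights only the difference of Pparα-/- mice was still called. A dimmer Il1rn probe rose in all 3 genotypes as well, by 0.75, 0.61 and 0.58.

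Il1b, the secreted cytokine that Il1rn opposes, rose on the HFD in Pparα-/- mice alone among the called changes, by 0.79 ± 0.27 (adjusted p = 0.0254). Without array weights this change was 0.82 (adjusted p = 0.0668), no longer called. Its signals there were 6.53, 7.88 and 8.7 on CTRL and 7.59, 8.72 and 9.23 on HFD, and the groups overlapped. The rise was 1.56 in wash batch 1 and 0.13 in wash batch 2, so that most of it came from 1 batch. The Il1b change was -0.4 ± 0.3 (adjusted p = 0.41) in WT and 0.42 ± 0.25 (adjusted p = 0.255) in Pparα hep-/- mice, and the diet response of Pparα-/- mice exceeded that of WT mice by 1.19 ± 0.4 (adjusted p = 0.0404). Il1a was dim, well above background on 1 of 8 WT CTRL, 2 of 8 WT HFD, 6 of 8 Pparα-/- CTRL and 8 of 8 Pparα-/- HFD arrays, so that most of its WT signals were near background. Pparα-/- HFD mice exceeded WT HFD mice by 0.7 ± 0.17 (adjusted p = 0.000792), and these groups did not overlap. On the CTRL diet the difference from WT was called as well, but 1 Pparα-/- mouse, replicate 6, read 7.58 and the next highest 6.09, so no size is given for it.

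Tnf, which encodes the cytokine TNF, gave opposite answers from its 2 probes. The brighter one (chr17:35336967-35337026) read 7.65, 8.7 and 9.35 in WT CTRL, 6.93, 8.32 and 9.43 in WT HFD, 7.04, 7.61 and 8.13 in Pparα hep-/- CTRL, 6.72, 7.21 and 7.86 in Pparα hep-/- HFD, 7.48, 7.66 and 8.19 in Pparα-/- CTRL and 7.0, 7.14 and 7.45 in Pparα-/- HFD mice. The groups of Pparα-/- mice did not overlap. By this probe Tnf was lower in both deletions than in WT on both diets, for example with a difference of -1.13 ± 0.18 (adjusted p = 9.15e-07) in Pparα-/- HFD mice, and it fell on the HFD, with changes of -0.48 ± 0.17 (adjusted p = 0.0387) after the hepatocyte and -0.54 ± 0.18 (adjusted p = 0.0227) after the germline deletion. The dimmer probe (chr17:35336795-35336854), which lies close by, was well above background on 2 to 8 arrays per group. It rose on the HFD in Pparα-/- mice by 0.69 ± 0.15 (adjusted p = 0.000691) and was higher there than in WT HFD mice by 0.78 ± 0.15 (adjusted p = 2.57e-05). With the tested probes of a gene averaged, the HFD change of Tnf in Pparα-/- mice was 0.08 (adjusted p = 0.633). No direction is therefore given for Tnf. This was the only called diet change of a member whose dimmer probe was called the other way, out of 49 pairs of a called change and a dimmer probe. In 38 of the 49 pairs the signs were the same, and 26 of the dimmer probes were called in the same direction.

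Of the cytokine receptors, Il1r1 moved in WT mice. It encodes the signalling chain of the IL-1 receptor, and its probe lies at chr1:40372667-40372726. Its signals were 9.51, 10.97 and 11.72 in WT CTRL and 9.23, 9.8 and 12.82 in WT HFD mice, with a log2 change of -1.02 ± 0.35 (adjusted p = 0.0347). The groups overlapped, since the 2 highest WT HFD mice, replicates 1 and 2, lay above every WT CTRL mouse with 12.2 and 12.82. The summed signal of neutrophil markers was also highest in these 2 mice of their group, at 10973 and 36719 against 885 to 1888 in the other 6, and its part in the Il1r1 signal was not tested. Without array weights the change was -0.45 (adjusted p = 0.505). In Pparα hep-/- mice the signals were 9.05, 9.72 and 10.76 on CTRL and 9.67, 10.27 and 11.05 on HFD, with a change of 0.63 ± 0.3 (adjusted p = 0.127). The diet responses of these genotypes differed by 1.65 ± 0.46 (adjusted p = 0.0173). On the CTRL diet the Pparα hep-/- mice had less Il1r1 than WT mice, with a difference of -1.22 ± 0.34 (adjusted p = 0.00629). Il1rap, its partner chain, and the TNF receptor genes Tnfrsf1a and Tnfrsf1b were not called on the HFD in any genotype. Tnfrsf1b was higher on the CTRL diet after both deletions, by 0.42 ± 0.11 (adjusted p = 0.00329) and 0.46 ± 0.11 (adjusted p = 0.00123).

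**Figure D3:**
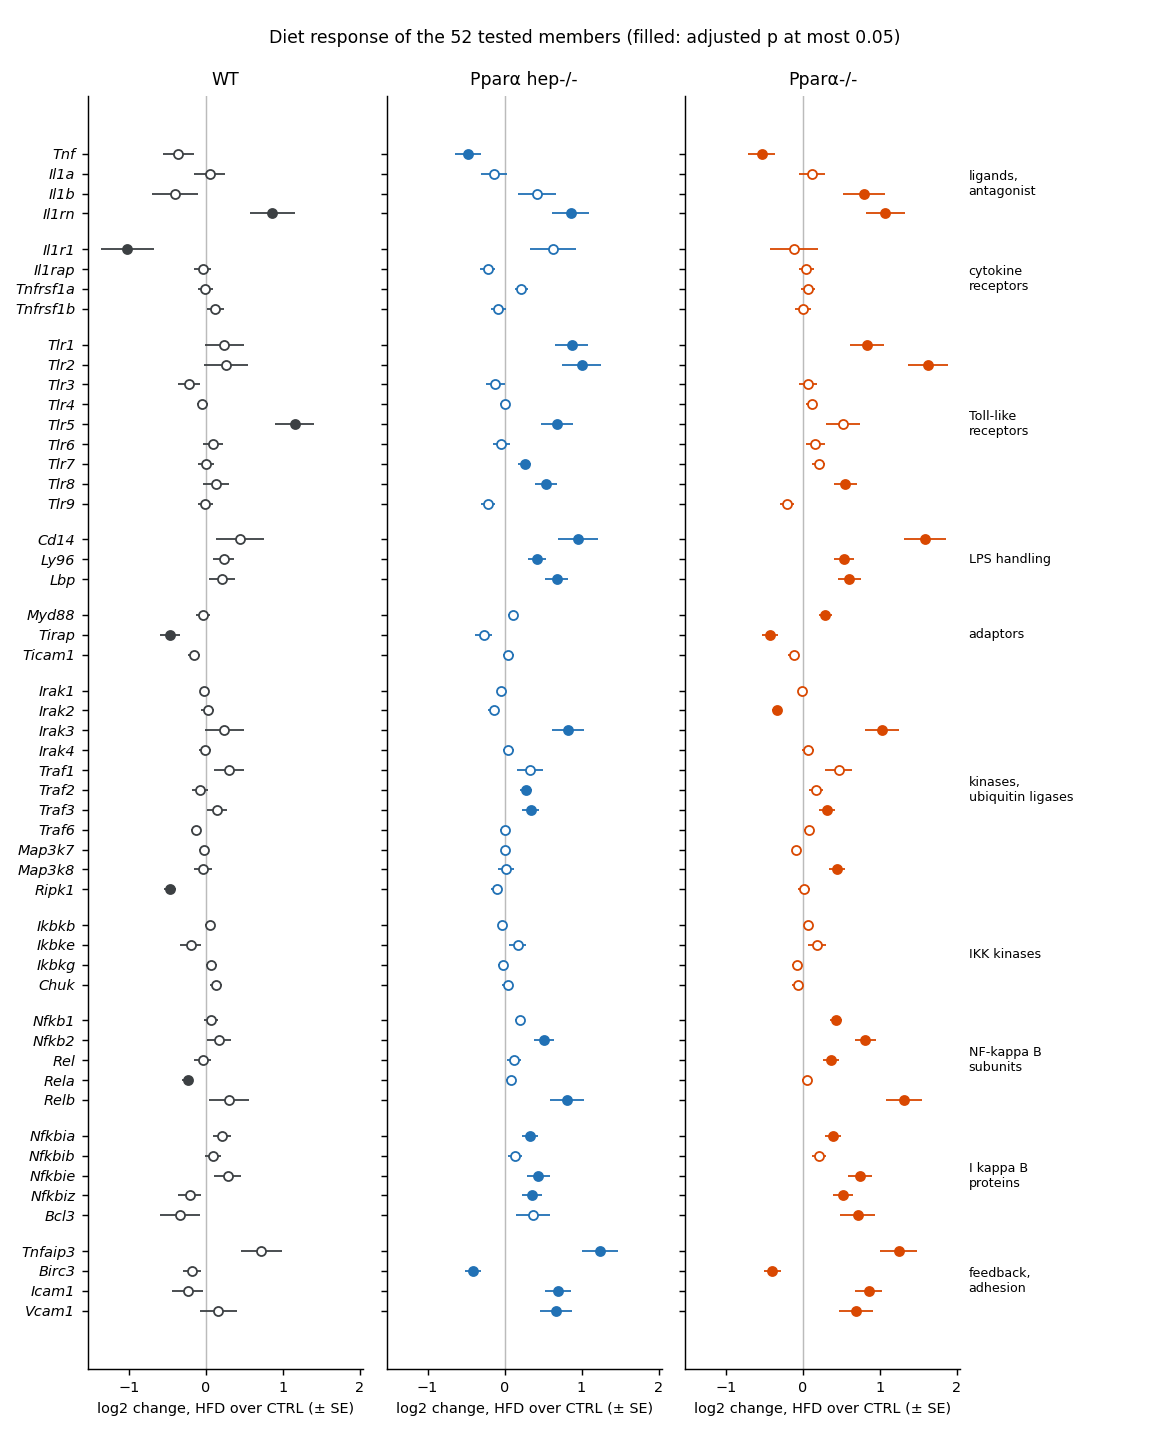
Log2 change of HFD over CTRL (horizontal axis, ± SE from limma, 8 mice per group) for the 52 tested members, ordered by role, in WT, Pparα hep-/- and Pparα-/- mice. Filled points have an adjusted p of at most 0.05. Tlr2, Cd14, Relb and Tnfaip3 lie above 1.2 in Pparα-/- mice, and the 4 IKK genes lie close to 0 in all 3 genotypes.

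Of the 9 Toll-like receptors, 1 rose in WT mice, 5 rose after the hepatocyte deletion and 3 after the germline deletion, against 9.32%, 10.7% and 13.8% of all gene names. Without array weights 1, 0 and 1 of the 9 were called. TLR2 pairs with TLR1 or TLR6 to sense bacterial lipopeptides, and Tlr2 had the largest HFD change of all 52 members in Pparα-/- mice (probe at chr3:83640344-83640403; its promoter matches are shown above). Tlr2 signals were 7.54, 7.89 and 9.48 in WT CTRL, 7.46, 8.28 and 10.02 in WT HFD and 7.9, 8.29 and 10.32 in Pparα hep-/- CTRL mice. Pparα hep-/- HFD mice had a lowest signal of 8.66 and a median of 9.33. The Pparα-/- mice had 8.21, 8.98 and 10.19 on CTRL and 9.28, 10.42 and 11.32 on HFD. Apart from 1 CTRL mouse, the Pparα-/- HFD mice lay above the Pparα-/- CTRL mice, and in Pparα hep-/- mice the highest of all 16 values was the low-weight CTRL array. Tlr2 rose by 1.62 ± 0.26 (adjusted p = 1.72e-05), a fold change of 3.07, in Pparα-/- and by 1.0 ± 0.25 (adjusted p = 0.0036), a fold change of 1.99, in Pparα hep-/- mice. In WT mice the change was 0.26 ± 0.29 (adjusted p = 0.606), and the response of Pparα-/- mice exceeded it by 1.36 ± 0.39 (adjusted p = 0.0159). The excess of Pparα hep-/- over WT mice was 0.73 ± 0.38 (adjusted p = 0.217). Tlr2 was also higher in Pparα-/- than in Pparα hep-/- mice on the HFD, by 1.2 ± 0.24 (adjusted p = 9.71e-05).

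Tlr1 rose by 0.87 ± 0.21 (adjusted p = 0.00244) in Pparα hep-/- and 0.83 ± 0.22 (adjusted p = 0.00422) in Pparα-/- mice (without weights, adjusted p = 0.359 and 0.0668), with HFD signals of 7.02, 7.49 and 8.14 and 7.25, 8.01 and 8.51. In WT mice it changed by 0.24 ± 0.25 (adjusted p = 0.569), where 1 HFD mouse, replicate 6, read 8.87 and the next highest 7.18. Tlr6, the other partner of Tlr2, was not called on the diet but differed by genotype. Its signals were 5.86, 6.19 and 7.27 in WT CTRL, 6.43, 6.7 and 7.04 in Pparα hep-/- CTRL and 6.91, 7.3 and 7.69 in Pparα-/- CTRL mice, and 5.83, 6.33 and 7.13, 6.23, 6.63 and 7.1 and 7.23, 7.4 and 7.63 on the HFD in the same order. Pparα-/- HFD mice lay above all WT HFD and all Pparα hep-/- HFD mice. The differences from WT were 1.09 ± 0.14 (adjusted p = 1.32e-08) on CTRL and 1.16 ± 0.12 (adjusted p = 3.56e-11) on HFD in Pparα-/-, and 0.53 ± 0.13 (adjusted p = 0.00194) and 0.4 ± 0.12 (adjusted p = 0.00972) in Pparα hep-/- mice. Without weights the last of these was no longer called, while the others were.

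Tlr5, the receptor for bacterial flagellin, was the Toll-like receptor that rose in WT mice (probe at chr1:184905770-184905829). Its signals went from 6.7, 7.73 and 8.48 in WT CTRL to 7.05, 8.7 and 9.13 in WT HFD mice, a rise of 1.15 ± 0.25 (adjusted p = 0.000683), and this call remained without weights (adjusted p = 0.0279). It rose by 0.68 ± 0.21 (adjusted p = 0.017) in Pparα hep-/- mice, from 6.97, 7.34 and 8.24 to 7.77, 8.21 and 8.68. In Pparα-/- mice the signals were 6.35, 6.87 and 8.1 on CTRL and 7.25, 7.42 and 8.26 on HFD, with a change of 0.52 ± 0.22 (adjusted p = 0.0765). A dimmer Tlr5 probe rose in all 3 genotypes, by 1.43, 0.75 and 0.73. With HFD, Pparα-/- mice had less Tlr5 than WT mice, with a difference of -1.13 ± 0.21 (adjusted p = 2.69e-05). Tlr5 thus ranked the groups differently from Tlr2, whose highest values were those of Pparα-/- HFD mice.

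Tlr7 and Tlr8 sense single-stranded RNA inside endosomes. Tlr8 was dim, well above background on 4 of 8 WT CTRL arrays and 8 of 8 Pparα-/- HFD arrays, and rose by 0.54 ± 0.14 (adjusted p = 0.00606) in Pparα hep-/- and 0.55 ± 0.15 (adjusted p = 0.00558) in Pparα-/- mice, while without weights the adjusted p was 0.448 and 0.0649. Tlr7 rose by 0.26 ± 0.08 (adjusted p = 0.0206) in Pparα hep-/- mice, while its dimmer probe rose by 0.72 ± 0.18 (adjusted p = 0.00289) there and by 0.91 ± 0.18 (adjusted p = 0.000331) in Pparα-/- mice. Tlr3, Tlr4 and Tlr9, which sense double-stranded RNA, lipopolysaccharide and unmethylated DNA, were called in none of the 12 comparisons by their brightest probes. The brightest Tlr4 probe lies at chr4:66591199-66591258, and a dimmer one, at chr4:66503724-66503782, rose in WT mice by 0.71 ± 0.2 (adjusted p = 0.00906), against 0.49 (adjusted p = 0.0546) without array weights.

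The RNAs for the proteins that present lipopolysaccharide to TLR4 rose in both deletions, all 3 of 3, against 10.7% and 13.8% of all gene names. Without array weights 0 of the 3 were called in Pparα hep-/- mice (limma, 2 at an unadjusted p under 0.05) and 3 in Pparα-/- mice. Cd14, the membrane co-receptor that is abundant on macrophages, read 7.52, 7.91 and 10.06 in WT CTRL, 7.53, 8.45 and 10.66 in WT HFD, 7.77, 8.41 and 9.98 in Pparα hep-/- CTRL and 8.63, 9.22 and 9.91 in Pparα hep-/- HFD mice. Among Pparα-/- mice its signals were 8.11, 8.81 and 10.18 on CTRL and 9.17, 10.39 and 10.89 on HFD. It rose by 0.96 ± 0.26 (adjusted p = 0.00731) in Pparα hep-/- and by 1.58 ± 0.27 (adjusted p = 5.1e-05), a fold change of 2.99, in Pparα-/- mice. The WT change was 0.44 ± 0.31 (adjusted p = 0.366), and neither deletion's response was called as different from it. The 2 highest WT HFD mice, replicates 2 and 6, reached the level of the Pparα-/- HFD mice.

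Lbp, the serum protein that carries lipopolysaccharide to CD14, rose by 0.68 ± 0.15 (adjusted p = 0.000858) in Pparα hep-/- mice, where all 8 HFD mice (11.71, 12.07 and 12.29) lay above all 8 CTRL mice (10.99, 11.44 and 11.65). It rose in Pparα-/- mice by 0.6 ± 0.15 (adjusted p = 0.00365), from 11.38, 11.73 and 12.03 to 11.91, 12.37 and 12.71. Ly96, which encodes the MD-2 subunit of the TLR4 complex, rose by 0.42 ± 0.12 (adjusted p = 0.0119) and 0.53 ± 0.13 (adjusted p = 0.00227), respectively. On the CTRL diet Pparα-/- mice had less of it than WT mice (difference -0.42, called), and its HFD signals in Pparα-/- mice (10.68, 10.76 and 11.32) overlapped those of WT HFD mice (10.4, 10.89 and 11.55).

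Of the 3 tested adaptors, 1 rose and 1 fell on the HFD in Pparα-/- mice, against 13.8% and 12.6% of all gene names. In WT mice 1 fell, against 10.1%, a call lost without array weights, and none was called in Pparα hep-/- mice (limma, 0 at an unadjusted p under 0.05 without weights). Myd88, used by IL-1 receptors and most Toll-like receptors, rose in Pparα-/- mice by 0.29 ± 0.08 (adjusted p = 0.00532). In these mice Myd88 was called lower than in WT mice on the CTRL diet and did not differ by a call on the HFD. Tirap, which bridges MyD88 to TLR2 and TLR4, fell on the HFD in WT and Pparα-/- mice, with changes of -0.47 ± 0.13 (adjusted p = 0.00598) and -0.43 ± 0.11 (adjusted p = 0.00401), against -0.27 ± 0.11 (adjusted p = 0.0704) in Pparα hep-/- mice. Ticam1, the adaptor of TLR3 and TLR4, was not called on the diet and stood above WT in Pparα hep-/- HFD mice by 0.4 ± 0.07 (adjusted p = 5.9e-05), where the mice did not overlap. The largest genotype difference of the adaptors was that of Tirap between the deletions on the CTRL diet, 0.46 ± 0.11 (adjusted p = 0.0021).

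Among the 11 kinases and ubiquitin ligases near the receptors, Irak3 moved most on the diet. Irak3 encodes IRAK-M, a family member that holds back Toll-like receptor signalling and is made mainly in monocytes and macrophages. Its signals were 5.5, 6.14 and 7.16 in WT CTRL, 6.04, 6.22 and 8.65 in WT HFD, 5.86, 5.99 and 6.9 in Pparα hep-/- CTRL, 6.4, 6.81 and 7.38 in Pparα hep-/- HFD, 5.99, 6.44 and 7.08 in Pparα-/- CTRL and 6.46, 7.45 and 8.54 in Pparα-/- HFD mice. It rose by 0.82 ± 0.21 (adjusted p = 0.00438) in Pparα hep-/- and 1.03 ± 0.22 (adjusted p = 0.000558) in Pparα-/- mice. Irak2, an activating member, fell in Pparα-/- mice, with a change of -0.34 ± 0.07 (adjusted p = 0.000632), from 11.68, 11.88 and 12.04 to 11.33, 11.62 and 11.77, and its response was below that of WT mice, with a difference of -0.36 ± 0.11 (adjusted p = 0.0201). The dimmer Irak2 probes were not called there.

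Map3k8 encodes TPL2, a kinase bound to the Nfkb1 product p105. It rose in Pparα-/- mice by 0.44 ± 0.1 (adjusted p = 0.0017), to 6.87, 7.38 and 7.49 against 6.52, 6.79 and 7.24 on CTRL, and its response exceeded that of WT mice by 0.47 ± 0.16 (adjusted p = 0.0342). Ripk1, the kinase at the TNF receptor that directs cells to survival or death, fell in WT mice from 9.2, 9.94 and 10.17 to 9.3, 9.5 and 9.88, a change of -0.47 ± 0.08 (adjusted p = 0.000114). A dimmer Ripk1 probe fell in WT mice too, with -0.39 ± 0.09 (adjusted p = 0.00177), and another fell in Pparα-/- mice, with -0.58 ± 0.14 (adjusted p = 0.0017). In both deletions Ripk1 was below WT on the CTRL diet, with differences of -0.44 ± 0.08 (adjusted p = 8.28e-05) and -0.58 ± 0.09 (adjusted p = 5.15e-07), and its changes on the HFD were -0.1 ± 0.07 (adjusted p = 0.325) and 0.01 ± 0.08 (adjusted p = 0.967), not called. The diet responses differed from that of WT mice by 0.36 ± 0.11 (adjusted p = 0.0302) and 0.47 ± 0.11 (adjusted p = 0.00405). Traf3 rose in both deletions, by 0.34 and 0.31, and Traf2 in Pparα hep-/- mice by 0.28, while Traf1, Traf6, Irak1, Irak4 and Map3k7 were not called on the diet. Traf2 was called lower than WT in both deletions on the CTRL diet and in neither on the HFD. Irak4 was below WT in Pparα-/- mice, with differences of -0.57 ± 0.09 (adjusted p = 7.19e-07) on CTRL and -0.49 ± 0.07 (adjusted p = 3.99e-07) on HFD, and lower than in Pparα hep-/- mice on both diets with no overlap.

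None of Chuk, Ikbkb, Ikbkg and Ikbke, the kinases and scaffold of the IKK complex and their relative, was called in any genotype on the HFD, with changes between -0.2 and 0.18. They differed by genotype. Chuk, which encodes IKK alpha, was below WT on the HFD, with differences of -0.56 ± 0.07 (adjusted p = 2.91e-09) in Pparα-/- mice, where no mouse overlapped, and -0.34 ± 0.07 (adjusted p = 0.000191) in Pparα hep-/- mice. Ikbke was higher in Pparα-/- mice, by 0.57 ± 0.14 (adjusted p = 0.00106) on CTRL and 0.94 ± 0.12 (adjusted p = 9.64e-09) on HFD, and lay above all Pparα hep-/- HFD mice on the latter.

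All 5 NF-kappa B subunit genes were measured. After the hepatocyte deletion 2 rose and after the germline deletion 4, against 10.7% and 13.8% of all gene names, and without array weights 0 and 4 were called. Relb encodes the partner of p52 in the non-canonical dimer, with a probe at chr7:20191722-20191781. Its signals were 7.24, 7.93 and 9.42 in WT CTRL, 7.83, 8.18 and 9.54 in WT HFD, 7.77, 8.08 and 10.24 in Pparα hep-/- CTRL, 8.41, 9.02 and 9.45 in Pparα hep-/- HFD, 7.47, 8.07 and 9.21 in Pparα-/- CTRL and 8.37, 9.35 and 10.04 in Pparα-/- HFD mice. The groups overlapped, and the highest of all 48 values was the low-weight Pparα hep-/- CTRL array. Relb rose by 1.31 ± 0.23 (adjusted p = 4.73e-05), a fold change of 2.48, in Pparα-/- and by 0.81 ± 0.22 (adjusted p = 0.00654) in Pparα hep-/- mice. The Pparα-/- response exceeded the WT one by 1.02 ± 0.34 (adjusted p = 0.0375). A dimmer probe in the same region rose by 0.51 ± 0.16 (adjusted p = 0.0233) and 0.96 ± 0.17 (adjusted p = 8.66e-05), while a probe elsewhere in the gene, at chr7:20203058-20203117, had changes of -0.16 ± 0.12 (adjusted p = 0.338) and -0.2 ± 0.12 (adjusted p = 0.221).

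Nfkb2, which encodes p100 and its product p52, read 8.91, 9.22 and 10.29 in WT CTRL, 9.1, 9.48 and 10.21 in WT HFD, 9.22, 9.42 and 10.94 in Pparα hep-/- CTRL, 9.5, 9.97 and 10.3 in Pparα hep-/- HFD, 9.1, 9.23 and 9.93 in Pparα-/- CTRL and 9.72, 10.23 and 10.61 in Pparα-/- HFD mice (probe at chr19:46386440-46386499). It rose by 0.51 ± 0.13 (adjusted p = 0.00482) in Pparα hep-/- and 0.81 ± 0.14 (adjusted p = 3.83e-05) in Pparα-/- mice, and the latter exceeded the WT response by 0.64 ± 0.21 (adjusted p = 0.0316). Nfkb1, which encodes p105 and p50, rose in Pparα-/- mice by 0.43 ± 0.08 (adjusted p = 9.82e-05), from 10.47, 10.64 and 10.93 to 10.82, 11.06 and 11.27. Rel rose there by 0.36 ± 0.1 (adjusted p = 0.00482). Rela, the p65 subunit of the common dimer, was not called in either deletion but fell in WT mice, with a change of -0.24 ± 0.07 (adjusted p = 0.0153), and its responses in the deletions differed from that of WT mice by 0.32 ± 0.1 (adjusted p = 0.0248) and 0.29 ± 0.1 (adjusted p = 0.0385).

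Of the 5 I kappa B genes, 3 rose after the hepatocyte and 4 after the germline deletion, against 10.7% and 13.8% of all gene names. Without array weights 0 and 3 of the 5 were called. Nfkbie, which encodes I kappa B epsilon, rose by 0.44 ± 0.15 (adjusted p = 0.0363) in Pparα hep-/- and 0.74 ± 0.16 (adjusted p = 0.000721) in Pparα-/- mice. Its signals were 7.54, 7.86 and 9.39 and 7.74, 8.37 and 8.61 on CTRL and HFD in the former, and 7.75, 8.01 and 8.83 and 8.34, 8.79 and 9.56 in the latter. Nfkbiz encodes a nuclear I kappa B that works as a co-activator. It rose by 0.36 ± 0.13 (adjusted p = 0.0411) and 0.52 ± 0.13 (adjusted p = 0.00382), and on the HFD every Pparα-/- mouse (9.08, 9.25 and 9.43) lay above every Pparα hep-/- mouse (8.16, 8.41 and 8.73). On the CTRL diet Nfkbiz was called lower in Pparα hep-/- than in WT mice. On the HFD the difference between these genotypes was not called. Nfkbia, the gene of the prompt feedback inhibitor I kappa B alpha, rose by 0.33 and 0.39, respectively, and Nfkbib was not called.

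Bcl3, another nuclear I kappa B, was lower than WT in both deletions on the CTRL diet. Its signals were 12.67, 13.12 and 13.58 in WT CTRL, 11.49, 12.41 and 12.85 in Pparα hep-/- CTRL and 11.86, 12.23 and 12.91 in Pparα-/- CTRL mice, with differences from WT of -0.98 ± 0.26 (adjusted p = 0.00371) and -0.86 ± 0.27 (adjusted p = 0.0102). On the HFD it rose in Pparα-/- mice by 0.71 ± 0.23 (adjusted p = 0.0228), with 1.1 in wash batch 1 and 0.39 in wash batch 2 and an adjusted p of 0.0729 without weights, and its HFD signals were 12.4, 12.78 and 14.51 in WT mice, 11.85, 12.81 and 13.56 after the hepatocyte deletion and 12.19, 13.01 and 13.92 after the germline deletion. No genotype difference of Bcl3 was called on the HFD.

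Of the induced genes, Tnfaip3 had the largest change on the diet. It encodes A20, an enzyme that edits ubiquitin chains and ends NF-kappa B signalling, and its probe lies at chr10:18720776-18720835. Tnfaip3 signals were 6.98, 7.39 and 9.09 in WT CTRL, 7.6, 8.14 and 9.55 in WT HFD, 7.78, 8.2 and 9.92 in Pparα hep-/- CTRL, 8.88, 9.29 and 9.98 in Pparα hep-/- HFD, 7.8, 8.3 and 9.18 in Pparα-/- CTRL and 8.42, 9.64 and 10.67 in Pparα-/- HFD mice. Apart from the low-weight CTRL array, all Pparα hep-/- HFD mice lay above all Pparα hep-/- CTRL mice. The rise was 1.24 ± 0.23 (adjusted p = 0.000143) in Pparα hep-/- and 1.24 ± 0.24 (adjusted p = 0.000198) in Pparα-/- mice, fold changes of 2.36 and 2.37. The WT change was 0.72 ± 0.27 (adjusted p = 0.0558), short of the threshold, and the responses were not called as different between genotypes. Between genotypes on the HFD it was higher than in WT mice by 1.27 ± 0.24 (adjusted p = 8.33e-05) in Pparα hep-/- mice, a call that remained without weights (adjusted p = 0.0116), and by 1.53 ± 0.24 (adjusted p = 7.31e-07) in Pparα-/- mice.

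Icam1 and Vcam1 encode adhesion molecules that bind leukocyte integrins. Icam1 (probe at chr9:20833186-20833245) read 10.12, 10.47 and 11.19 in WT CTRL, 9.72, 10.07 and 11.41 in WT HFD, 9.96, 10.45 and 11.97 in Pparα hep-/- CTRL, 10.71, 11.15 and 11.6 in Pparα hep-/- HFD, 10.59, 10.92 and 11.56 in Pparα-/- CTRL and 11.14, 11.81 and 12.31 in Pparα-/- HFD mice. It rose by 0.69 ± 0.17 (adjusted p = 0.00286) in Pparα hep-/- and 0.85 ± 0.18 (adjusted p = 0.000443) in Pparα-/- mice and its change in WT mice was -0.24 ± 0.2 (adjusted p = 0.449). Icam1 was the member whose diet response differed from that of WT mice in both deletions with a rise in each, by 0.93 ± 0.26 (adjusted p = 0.017) and 1.09 ± 0.26 (adjusted p = 0.00423). Without array weights these differences had adjusted p of 0.474 and 0.0949. Vcam1 rose by 0.67 ± 0.21 (adjusted p = 0.0187) and 0.69 ± 0.22 (adjusted p = 0.0157), calls lost without weights (adjusted p = 0.634 and 0.0866), with HFD signals of 10.43, 11.1 and 11.77 and 10.35, 10.79 and 11.28. Birc3, an inhibitor of apoptosis bound to TRAF proteins, fell in both deletions, with changes of -0.41 and -0.4, but its dimmer probes were not called.

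**Figure D4:**
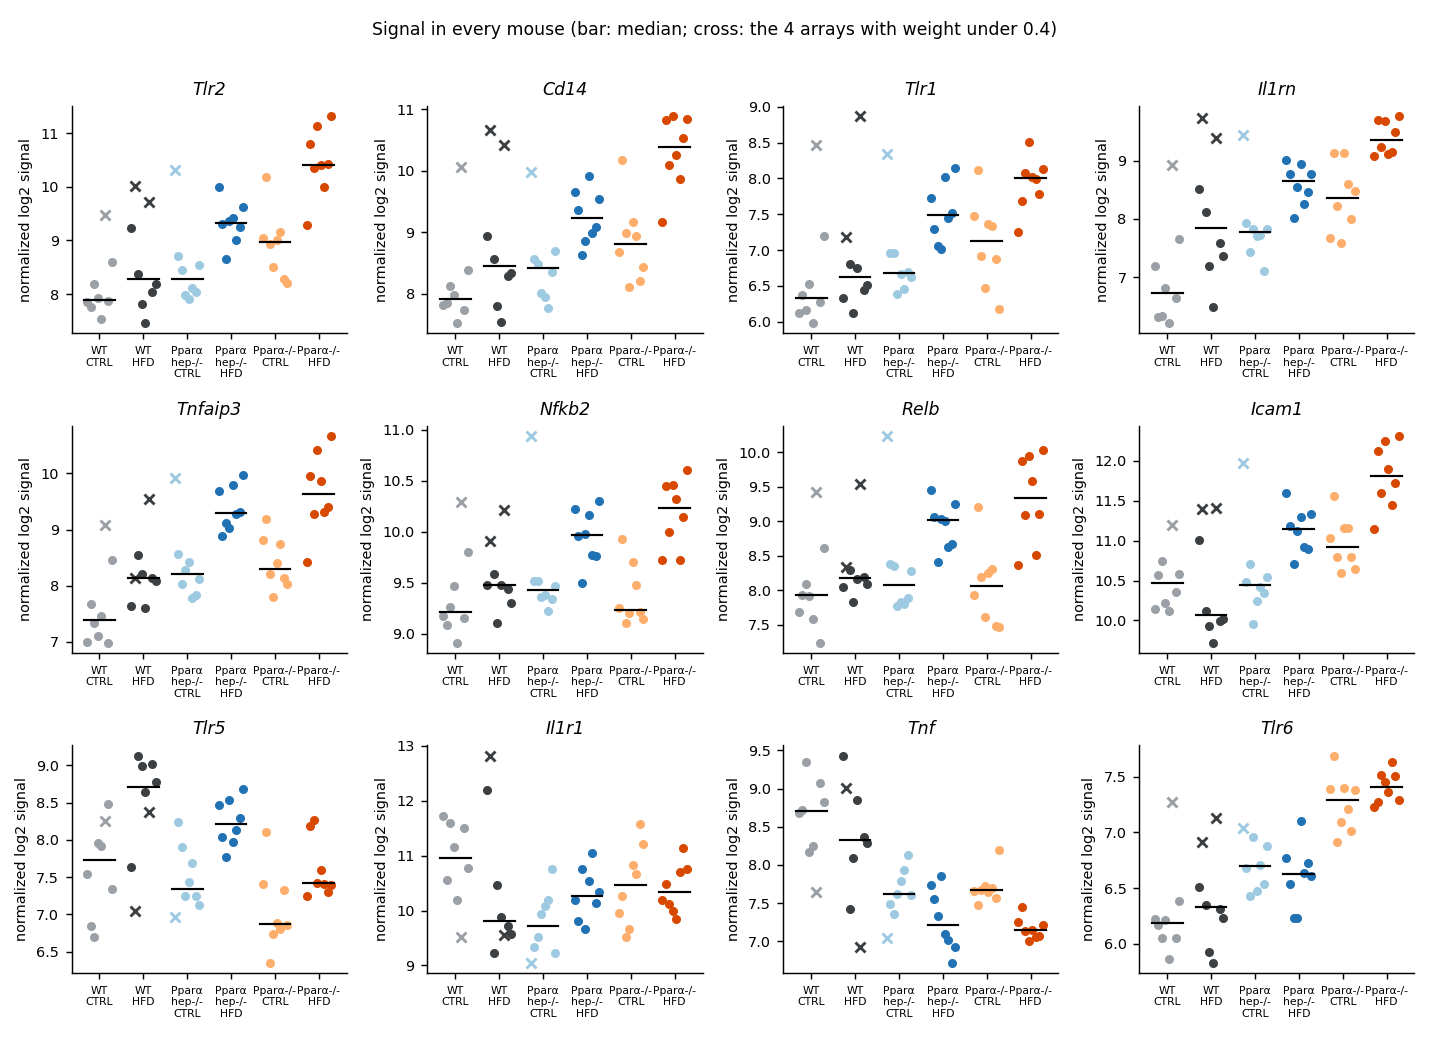
Normalized log2 signal (vertical axis, after removal of the wash batch term) of 12 members in each of the 48 mice. Points are mice, bars are group medians and crosses are the 4 arrays with a weight under 0.4. For Tlr2 the median rises from 7.89 in WT CTRL to 10.42 in Pparα-/- HFD mice, for Tlr5 the highest median, 8.70, is that of WT HFD mice, and the crosses often lie above the rest of their group.

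A second question is how the genotypes differed on one diet. The 3 comparisons on a diet share their groups in pairs, so their counts are not independent. With the CTRL diet 5 members were higher and 9 lower than WT in Pparα hep-/- mice, against 12.3% and 12.9% of all gene names. In Pparα-/- mice 16 were higher and 10 lower than in WT mice, against 16.9% and 18.4%. Between the deletions, 7 were higher and 3 lower in Pparα-/- mice, against 13.2% and 13.4%. The shares of lower members in Pparα-/- mice (19.2%) and of higher members in Pparα-/- over Pparα hep-/- mice (13.5%) thus lay near the shares of all gene names. Without array weights 7 of the 14, 19 of the 26 and 6 of the 10 calls remained, and with the 4 low-weight arrays left out and no weights 12, 26 and 12 members were called. Cell type markers differed too. In Pparα hep-/- against WT mice 3 of 10 macrophage (median log2 difference 0.58) and 3 of 7 endothelial markers were higher. So were 1 stellate cell, 1 monocyte and 1 neutrophil marker. In Pparα-/- against WT mice 4 of 10 macrophage (median 0.57) and 3 of 7 endothelial markers were higher. So were 1 stellate cell and 1 monocyte marker, while 1 endothelial and 1 monocyte marker were lower. Without weights the macrophage calls numbered 1 and 3.

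On the HFD, 19 members were higher and 3 lower than WT in Pparα hep-/- mice, against 14.6% and 14% of all gene names, but without array weights 5 were called in all, and without weights and the 4 low-weight arrays 20. In Pparα-/- mice 29 were higher and 7 lower than in WT mice, against 24.1% and 23.7%, and 29 of these 36 calls remained without weights, with 34 called when the 4 arrays were left out as well. The largest differences there were those of Tlr2 (2.26 ± 0.25, adjusted p = 6.69e-10), Cd14 (1.95 ± 0.27, adjusted p = 7.47e-08), Il1rn (1.79 ± 0.25, adjusted p = 1.06e-07), Icam1 (1.67 ± 0.17, adjusted p = 6.31e-11) and Tnfaip3. Directly between the deletions, 17 members were higher and 6 lower in Pparα-/- mice, against 16.9% and 15%. Without weights 13 of these 23 calls remained, and with the 4 arrays left out as well 19. The higher members included Tlr2, Il1b (1.14 ± 0.25, adjusted p = 0.000295), Cd14 (1.1 ± 0.25, adjusted p = 0.000644), Nfkbiz (0.86 ± 0.12, adjusted p = 3.05e-07), Il1rn (0.85 ± 0.24, adjusted p = 0.00421) and Icam1 (0.71 ± 0.16, adjusted p = 0.000539). Of those named, Il1rn was not called without weights (adjusted p = 0.096). Cell type markers differed between the genotypes on the HFD as well. In Pparα-/- against WT mice 9 of 10 macrophage markers (median log2 difference 1.41), 6 of 6 stellate cell, 5 of 7 endothelial, 4 of 6 neutrophil and 2 of 3 monocyte markers were higher and 1 endothelial marker was lower. Without weights the calls in these lists, in either direction, numbered 9, 3, 5, 0 and 1 (limma, 2 neutrophil markers at an unadjusted p under 0.05). In Pparα hep-/- against WT mice 7 of 10 macrophage (median 0.88), 5 of 6 stellate cell, 4 of 7 endothelial, 1 of 6 neutrophil and 2 of 3 monocyte markers were higher, with 2, 3, 1, 0 and 0 calls without weights (limma, 0 neutrophil and 1 monocyte marker at an unadjusted p under 0.05). Between the deletions 3 of 10 macrophage (median 0.37), 2 of 6 neutrophil (0.71) and 2 of 5 T cell markers were higher in Pparα-/- mice. So were 2 of 7 endothelial, 1 of 6 stellate cell and 1 of 3 monocyte markers, while 1 endothelial and 2 of 4 cholangiocyte markers were lower. Without weights the calls numbered 2, 1, 1, 2, 1, 0 and 0 in this order (limma, 0 monocyte and 1 cholangiocyte marker at an unadjusted p under 0.05). The part of these cells in the differences of the members was not tested on either diet.

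Whether the diet responses themselves differed was tested as well. Between Pparα hep-/- and WT mice 4 of 52 members differed (Il1r1, Rela, Icam1 and Ripk1), each with a higher response in Pparα hep-/- mice, and the shares of all gene names were 4.86% higher and 6.3% lower. Between Pparα-/- and WT mice 11 had a higher response, against 7.75% of all gene names, and 1, Irak2, a lower one, against 7.76%. The 11 were Il1b, Tlr2, Nfkb1, Nfkb2, Rela, Relb, Nfkbiz, Icam1, Map3k8, Ripk1 and Bcl3. Without weights none of these differences was called, although 1 and 10 members had an unadjusted p under 0.05, and without weights and the 4 low-weight arrays 2 and 12 members were called. Between the deletions no member was called (limma, 0 of 52, also under each of the 14 other settings, with 2 at an unadjusted p under 0.05), while 2.55% and 1.38% of all gene names were. A member called on the HFD in one deletion and not in the other is therefore not shown to differ between them.

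The study had itself shown 9 of the members as genes of these pathways on these samples: Tlr2, Tnfaip3, Relb, Tlr7, Icam1, Nfkb2, Lbp, Ly96 and Nfkbia. Their direction is not independent evidence, and all 9 rose after the hepatocyte deletion and 8 after the germline deletion. On these same arrays the study had found these pathways enriched among genes that rose on the HFD with either deletion. The other members belong to the same pathways and were chosen with earlier results of these data known. Their counts are therefore not independent evidence either. Of the other 43 tested members, 11 rose (25.6%) and 2 fell (4.65%) in Pparα hep-/- mice, against 10.7% and 11.8% of all gene names. In Pparα-/- mice 15 rose (34.9%) and 4 fell (9.3%), against 13.8% and 12.6%, and in WT mice 2 rose (4.65%) and 4 fell (9.3%), against 9.32% and 10.1%. Their median changes were 0.08 and 0.11 in the deletions. Without array weights 0 of the 43 were called in Pparα hep-/- mice (limma, 3 at an unadjusted p under 0.05), 12 in Pparα-/- mice and 3 in WT mice.

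A further 54 genes of the same pathways that are not members were read from a fixed list, 51 of them tested. This list too was chosen with earlier results of these data known, so its counts are not independent evidence. In WT mice 2 rose and 6 fell, in Pparα hep-/- mice 12 rose and 3 fell, and in Pparα-/- mice 20 rose and 5 fell, against the shares of all gene names given above. Map3k14, the kinase NIK that starts processing of p100, rose by 0.71 ± 0.15 (adjusted p = 0.00085) and 0.7 ± 0.16 (adjusted p = 0.0012) in the deletions. The AP-1 genes Fos and Jun rose too, Fos by 1.33 ± 0.26 (adjusted p = 0.000292) and 1.5 ± 0.27 (adjusted p = 9.73e-05) and Jun by 1.03 ± 0.21 (adjusted p = 0.000424) and 0.95 ± 0.22 (adjusted p = 0.00123). Tlr13, which senses bacterial ribosomal RNA, rose by 0.87 and 0.78. Tlr12 rose in all 3 genotypes, by 1.45 in WT mice and by 0.76 and 1.18 in the deletions. Cyld, a ubiquitin-cutting brake on NF-kappa B, fell in the deletions, with changes of -0.21 and -0.47. Without array weights the calls numbered 5, 2 and 18 in WT, Pparα hep-/- and Pparα-/- mice.

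Markers of macrophages moved with the members. Of 10 markers of macrophages and Kupffer cells, none was called on the HFD in WT mice, while 5 rose after the hepatocyte and 8 after the germline deletion, among them Cd68, by 0.69 ± 0.21 (adjusted p = 0.0185) and 1.17 ± 0.22 (adjusted p = 0.000184), and Adgre1, by 0.65 ± 0.21 (adjusted p = 0.0221) and 0.93 ± 0.22 (adjusted p = 0.00168). Their summed linear signal ran from 14990 to 34726 in WT CTRL, 10887 to 55424 in WT HFD, 23550 to 46752 in Pparα hep-/- CTRL, 27139 to 50299 in Pparα hep-/- HFD, 19839 to 38156 in Pparα-/- CTRL and 31406 to 60200 in Pparα-/- HFD mice. The shares of all gene names called higher were 10.7% and 13.8%. Of 3 monocyte markers 2 and 3 rose in the deletions, of 6 neutrophil markers 1 (16.7%) and 3, and of 6 stellate cell markers 3 and 5, and the largest change among the stellate cell markers was that of Col1a1, a fibrillar collagen, by 2.18 ± 0.48 (adjusted p = 0.0011) and 1.51 ± 0.5 (adjusted p = 0.0228). Neutrophil marker signal reached 10973 and 36719 in WT HFD replicates 1 and 2, against a group median of 1265. All of these lists had every marker well above background in every group on at least 1 array. Of the T cell, B cell, cholangiocyte and endothelial lists, 0 of 5, 0 of 3, 1 of 4 and 2 of 7 tested markers rose in Pparα hep-/- and 0, 0, 0 and 2 in Pparα-/- mice, while 1 T cell marker fell in each deletion. Hepatocyte markers summed to between 1259934 and 1568134 over all groups. Fitted with limma without array weights, 0 macrophage markers were called after the hepatocyte deletion, with 0 at an unadjusted p under 0.05, and 6 were called after the germline deletion. Without weights the monocyte calls numbered 1 and 2, the neutrophil calls 0 and 0 (0 and 1 at an unadjusted p under 0.05) and the stellate cell calls 1 and 1. The part of these cells in the changes of the members was not tested.

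**Figure D5:**
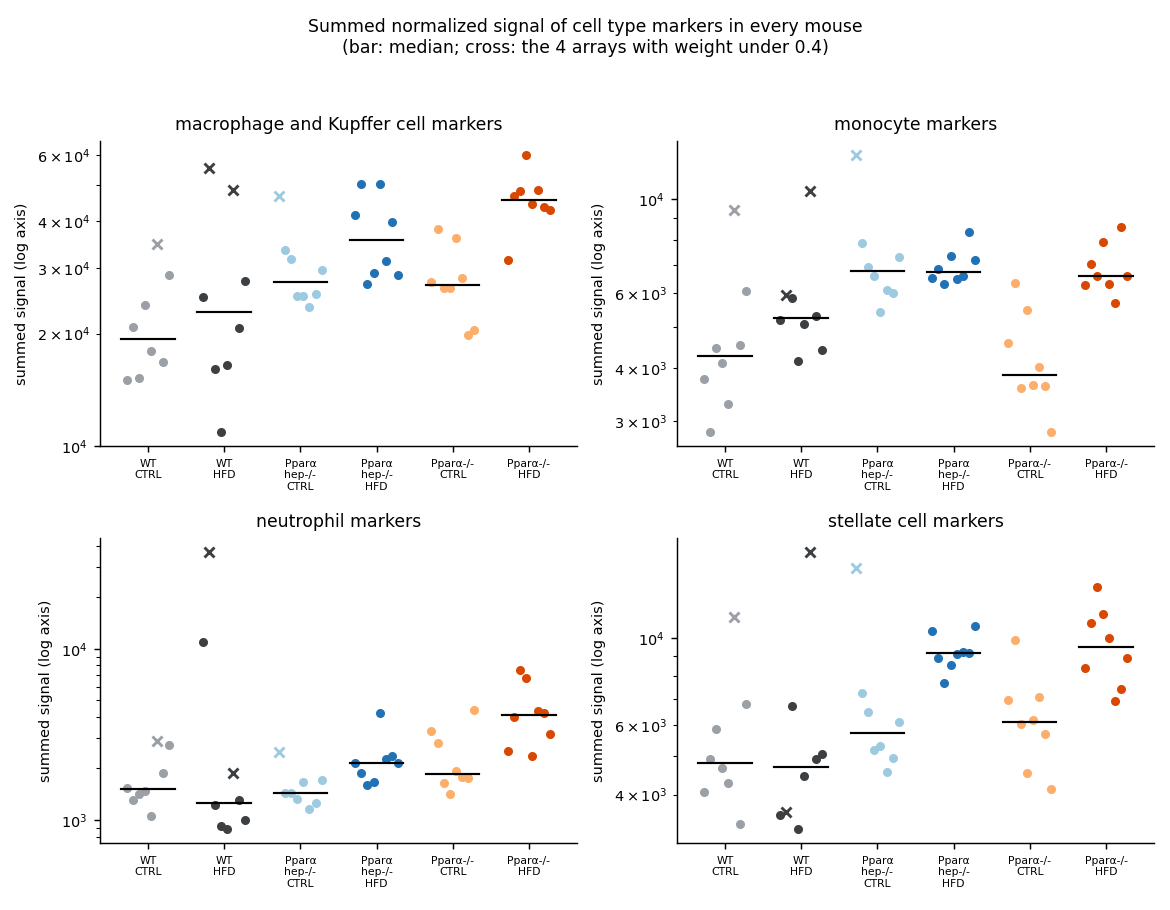
Summed normalized linear signal (vertical log axes) of the fixed macrophage and Kupffer cell, monocyte, neutrophil and stellate cell markers in each of the 48 mice, with group medians as bars and the 4 arrays of weight under 0.4 as crosses. The macrophage median is 45575 in Pparα-/- HFD and 27029 in Pparα-/- CTRL mice, and the crosses of WT mice reach 55424.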

How the data were processed

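The authors deposited Agilent Feature Extraction (version 10.10.1.1) output for 48 liver samples hybridised on a one-colour mouse array. The values used are, per the file headers, median spot intensities, neither background subtracted nor normalized. The background-subtracted intensities in the same files and the authors' log2 table, which as deposited had been filtered, batch corrected and quantile normalized, served as alternatives.

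Here intensities were log2 transformed, outlier spots were left out, spots were averaged per probe, and a probe was kept where 4 or more of the 8 arrays in any group called it well above background, followed by quantile normalization (R 4.3.3, limma 3.58.1). limma was fitted with group means, a wash batch term and array weights. The study's methods also used array weights, but removed the wash batch effect before normalization rather than in the model. Calls used Benjamini-Hochberg adjustment per contrast over 33321 probes. Probes with a missing value (193 values) were fitted by their own pattern of arrays. The fit was also run on simulated data with known changes and independent noise. That run is not used as support, since such noise cannot show how calls depend on outlying mice. The 12 contrasts were 3 diet responses, 6 genotype differences and 3 differences of diet responses. The brightest tested probe stands for a gene. Probe positions are mm9, as in the files, and no mm9 annotation was used here.

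The members, roles and lists were chosen with earlier results of these data known. Members are named when called on the HFD with a log2 change of at least 0.5 in size, or when their diet responses differed. That gave 25, of which the 24 with the largest diet changes are named by rule (the 25th, Rela, and other members are named by role or after their values were seen). The other pathway genes and the markers are named from fixed lists. White adipocyte, pancreas and red blood cell markers were listed too. None of the 2 white adipocyte markers tested was called on the HFD, both pancreas markers tested fell in Pparα hep-/- and 1 in Pparα-/- mice, and 1 of 2 red blood cell markers fell in Pparα-/- mice.

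Array medians of intensity ran from 56.0 to 91.0, with backgrounds of 20.0 to 36.0, and 28234 to 38217 spots were well above background. No spot was saturated. The number of arrays limits the precision. Wash batches held 4 arrays of each group each, except 3 and 5 of Pparα hep-/- CTRL and 5 and 3 of Pparα hep-/- HFD. The 14 alternatives in the closing section changed the weights, wash term, blocks, filter, background, normalization, probe summary or arrays used. Promoter windows are RefSeq's, and motif counts are descriptions.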

Additional observations from a re-analysis of the deposited data

Results flagged for a closer look

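Single mice stood apart from the other 7 of their group in 28 of 144 sets of signals (24 named members in 6 groups), by the gap to the next mouse over the range of the group. Chance gives about 1 such set in 20. The sets share the same mice and are not independent, so no excess over chance is read from the 28. Pparα hep-/- CTRL replicate 1 was the highest mouse in 15 of the 28, with normalized log2 signals of Il1b at 8.1 (next 7.31), Il1rn at 9.45 (next 7.93), Tlr1 at 8.34 (next 6.96), Tlr2 at 10.32 (next 8.72), Tlr8 at 6.98 (next 6.21), Cd14 at 9.98 (next 8.7), Irak3 at 6.9 (next 6.31), Nfkb1 at 11.1 (next 10.6), Nfkb2 at 10.94 (next 9.52), Relb at 10.24 (next 8.38), Nfkbie at 9.39 (next 7.93), Nfkbiz at 9.02 (next 8.15), Tnfaip3 at 9.92 (next 8.57), Icam1 at 11.97 (next 10.71) and Vcam1 at 11.88 (next 10.86). WT HFD replicate 6 was the highest in 6, with Tlr1 at 8.87 (next 7.18), Tlr8 at 7.31 (next 6.33), Nfkb1 at 10.99 (next 10.53), Relb at 9.54 (next 8.34), Nfkbie at 9.03 (next 7.95) and Vcam1 at 11.92 (next 10.43). WT CTRL replicate 6 was highest for Cd14 at 10.06 (next 8.38) and lowest for Ripk1 at 9.2 (next 9.76). The remaining 5 sets were Tnf in Pparα-/- CTRL replicate 8 at 8.19, Lbp in WT CTRL replicate 7 at 12.24, Ripk1 in Pparα hep-/- CTRL replicate 4 at 9.67, Ly96 in Pparα hep-/- HFD replicate 3, the lowest at 10.45, and Map3k8 in Pparα-/- HFD replicate 1, the lowest at 6.87. Summed signals of some marker lists stood high in the same mice, and those of other lists stood low. Pparα hep-/- CTRL replicate 1 was the highest of its 8 for macrophage (46752, next 33393), monocyte (12704, next 7855), stellate cell (15057, next 7262) and cholangiocyte markers (2003, next 562). WT CTRL replicate 6 was the highest for macrophage (34726, next 28789), monocyte (9442, next 6083), stellate cell (11295, next 6808) and cholangiocyte markers (1827, next 706), and WT HFD replicate 6 for monocyte (10458, next 5943) and stellate cell markers (16534, next 6718). The part of these cells in the signals of the members was not tested.

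The diet response of a named member differed from that of WT mice in 14 cases (limma, adjusted p at most 0.05). In Pparα hep-/- mice the differences in log2 change were 1.65 for Il1r1, 0.93 for Icam1 and 0.36 for Ripk1. In Pparα-/- mice they were 1.19 for Il1b, 1.36 for Tlr2, -0.36 for Irak2, 0.36 for Nfkb1, 0.64 for Nfkb2, 1.02 for Relb, 0.73 for Nfkbiz, 1.09 for Icam1, 0.47 for Map3k8, 0.47 for Ripk1 and 1.05 for Bcl3. None of the 14 was called without array weights.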

How the results depend on the processing

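The 288 changes of the 24 named members, 128 of them called, were recomputed under 14 settings. Of 4032 values 3755 kept their call, 232 were no longer called, 43 were newly called and 2 took the other sign. The latter were Tnf changes with the probes of a gene averaged, 0.08 on the HFD in Pparα-/- mice and 0.27 between the deletions on the HFD (adjusted p = 0.0272). Leaving out the arrays of lowest weight was chosen after seeing the data. Array weights mattered most. Without them the members called numbered 3 for WT, 0 for Pparα hep-/- and 20 for Pparα-/- mice on the HFD. They numbered 7 (Pparα hep-/- against WT) and 6 (between the deletions) on the CTRL diet, 5 and 13 on the HFD, and 0 and 0 for the diet responses of Pparα hep-/- and Pparα-/- mice against WT. With 2 arrays left out and no weights, the counts were 8 for Pparα hep-/- mice on the HFD, 7 for Pparα hep-/- against WT on the HFD, and 0 and 1 for the diet responses against WT. With 4 left out and no weights, 2 diet responses of Pparα hep-/- mice differed from WT. Without the wash term, 14 members were called for Pparα hep-/- mice on the HFD and 5 for the diet response of Pparα-/- mice against WT. Without a filter on dim probes, the counts were 14 for Pparα hep-/- mice on the HFD, 6 between the deletions on CTRL, 13 for Pparα hep-/- against WT on the HFD, and 0 and 2 for the diet responses against WT. The causes were not tested. Apart from 1 count under the replicate block, given next, the other counts lay within 1.5 times those reported.

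Deviations of mice with the same replicate number were compared with those of other mice. Over 120 pairs of groups and numbers the median correlation of deviations was 0.0223 (from -0.449 to 0.694), against -0.0023 between unlike numbers. Of the 48 arrays, 11 correlated best with their own number. These values do not settle whether the numbers pair the mice. With the replicate block, 2 diet responses of Pparα hep-/- mice differed from WT, against 4 without it, 14 named changes were no longer called and 1 was newly called. Signal near background limits Il1a, Tlr8 and the dimmer Tnf probe.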
